A study of Mus musculus with 137 samples.

Results

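Old mouse lung was compared 21 days after bleomycin and 21 days after saline, with 6 lungs in each group. These 12 libraries were chosen by their sample titles alone, with no measured value used, from the mouse lung libraries of the series, which fall into 26 groups, and make up 8.76% of them. All 12 lungs came from male C57BL/6J mice aged 21 months, and the labels name no engineered allele. The bleomycin group received 0.63 mg/kg bleomycin by instillation into the trachea, and the saline group received sodium chloride solution by the same route. RNA was extracted from about 20 mg of flash-frozen lung and poly-A RNA was sequenced, with 1 lung in each library. The bleomycin effect was also read in young mice of 8 to 12 weeks at day 21, from 4 lungs after 0.7 mg/kg bleomycin and 5 after saline. It was further read in old mice at day 14, with 6 lungs in each group, and at day 28, with 5 in each. Old mice without instillation, taken at day 0, gave 5 more lungs. Between old and young mice both age and dose differed, and the part of each cannot be told apart.

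Bleomycin is an antibiotic that breaks DNA, and its instillation injures the lining of the alveoli, the air sacs in which gas is exchanged. In the following weeks macrophages enter the tissue, type 2 alveolar cells divide and pass through a keratin-rich transitional state on their way to flat type 1 cells, and fibroblasts deposit collagen-rich matrix under signals such as transforming growth factor beta (TGF-beta). Resolution of this scar is known to be slower in aged mice than in young mice. Each value below is an average over all cells of a piece of lung, so fewer cells of a type and less RNA per cell cannot be told apart.

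The bleomycin libraries held 16815272 to 21002842 reads assigned to genes, and the saline libraries held 20627282 to 27153370. Mean depth was 19092024 ± 1589069 reads in bleomycin lungs and 23064434 ± 2457380 reads in saline lungs (SD, n = 6 each), a difference larger than the spread between lungs (exact permutation test, two-sided p = 0.00649). Levels are therefore given as CPM, the reads of a gene per 1000000 reads of the scaled library, which corrects for depth. The lung label was checked on Sftpc, the surfactant protein C gene of type 2 cells, which stood at 7381 to 17378 CPM in bleomycin lungs and 11533 to 17159 CPM in saline lungs, and on the liver gene Alb, which reached at most 0.773 CPM in bleomycin lungs and 1.17 CPM in saline lungs. Ddx3y, a Y-linked gene, had 111.3 to 124.98 CPM in bleomycin lungs and 105.1 to 125.95 CPM in saline lungs, as the male label requires. The labels give the replicates only as separate samples, so p-values measure the spread between these samples. Bleomycin replicate 3 was the mildest of the 6 bleomycin lungs by most measures below, and it was kept in every test unless stated.

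Bleomycin changed a large share of the lung transcriptome. Among 18396 genes with enough counts, 7815 (42.5%) passed an adjusted p of 0.05 in edgeR's quasi-likelihood test, and the words rose and fell are used below for such genes only. Of these, 3881 rose, which is 21.1% of all genes tested, and 3934 fell, which is 21.4%. The median log2 fold change over all genes was −0.011. The shares of 21.1% and 21.4% and this median are the background for each gene list below. Lists and members were chosen with earlier results of these data known, so a list set beside this background is described and not tested. The split into rises and falls depended on the scaling, since upper-quartile scaling gave 3167 rises and 4822 falls. A change beyond 1 on the log2 scale was found for 1982 genes (10.8%), with 916 rises (4.98%) and 1066 falls (5.79%). For 3464 genes (18.8%) the bleomycin and saline lungs did not overlap, with bleomycin higher for 1843 genes (10.02%) and lower for 1621 (8.81%).

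**Figure D1:**
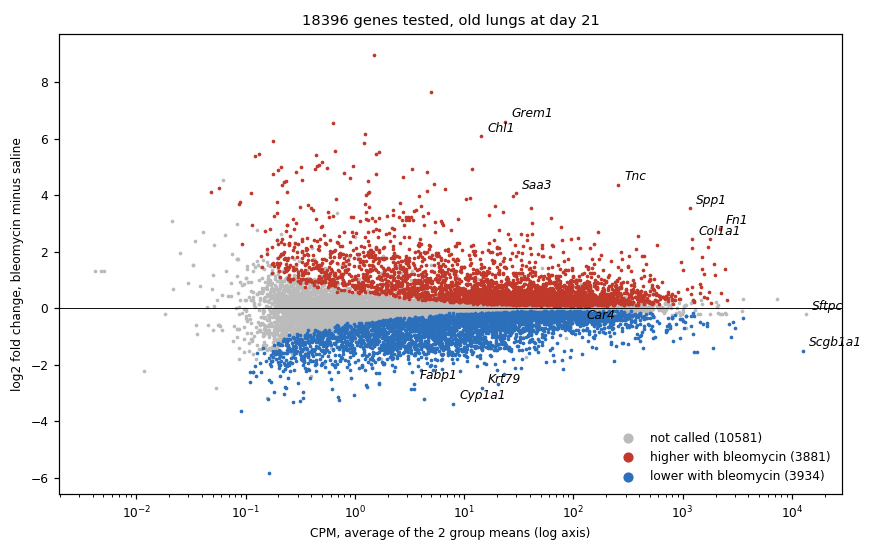
Log2 fold change of bleomycin over saline in old lungs at day 21 (vertical axis) against the average of both group means in CPM (horizontal axis, log scale), with 1 point per tested gene, coloured by whether it rose, fell or did not pass the test. The 3881 rises reach further from 0 than the 3934 falls among well-counted genes, with Grem1 at 6.60 and Cyp1a1 at −3.39.

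The largest well-counted rises included an antagonist of bone morphogenetic proteins, matrix genes and enzymes of hyaluronan, a long matrix sugar. The 14 largest rises and 12 largest falls were picked only among genes whose bleomycin and saline lungs did not overlap. For these genes the lack of overlap follows from the choice. Grem1, at chr2:113746164-113758646 (GRCm38), encodes gremlin 1, a secreted antagonist of bone morphogenetic proteins (BMPs). The 6 bleomycin lungs, in replicate order, had 55.7, 33.3, 5.70, 20.2, 60.6 and 108.2 CPM of Grem1, against 0.521, 0.472, 0.283, 0.333, 0.597 and 0.648 CPM in the saline lungs. Among the bleomycin lungs replicate 3 was the lowest and replicate 6 the highest, and the log2 fold change was 6.60 ± 0.67 (standard error, adjusted p = 4.21e-14). Chl1, a cell adhesion molecule of the L1 family at chr6:103510586-103750211, had 32.2, 20.6, 2.37, 19.4, 48.4 and 46.6 CPM in bleomycin lungs, against 0.189 to 0.695 CPM in saline lungs. Its log2 fold change was 6.09 ± 0.69 (adjusted p = 4.49e-12), and replicate 3 was again the lowest bleomycin lung.

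Cemip, which takes part in the breakdown of hyaluronan, rose by 4.95 ± 0.63 on the log2 scale, and Has2, a hyaluronan synthase, rose by 4.16 ± 0.48. Thbs4 and Thbs2, which encode thrombospondins of the matrix, rose by 4.41 ± 0.55 and 3.97 ± 0.45. Saa3, an acute-phase serum amyloid gene, had a median of 61.7 CPM in bleomycin lungs and 2.98 CPM in saline lungs (log2 fold change 4.07 ± 0.54). Megf11 rose by 4.83 ± 0.54, Rgs16, a brake on G-protein signalling, by 3.89 ± 0.41, and Sprr1a, a small proline-rich protein gene of stressed epithelium, by 3.98 ± 0.42. Col24a1, Tnc, Dkk2 and P4ha3, described with their families below, made up the rest of the 14 largest rises.

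The largest falls were in a xenobiotic enzyme, lipid-related genes and genes of several cell types. Cyp1a1, at chr9:57687928-57703824, encodes a xenobiotic-metabolising enzyme and is a target of the aryl hydrocarbon receptor. It had 0.944, 0.598, 3.48, 1.25, 1.18 and 0.665 CPM in bleomycin lungs, against 12.5, 8.35, 15.2, 8.66, 20.6 and 21.5 CPM in saline lungs. By the rule of choice no bleomycin lung reached the lowest saline lung, and the log2 fold change was −3.39 ± 0.50 (adjusted p = 2.06e-08). Bex2, an X-linked gene at chrX:136066564-136068236, had 4.25, 3.39, 14.1, 5.57, 3.69 and 1.69 CPM in bleomycin lungs, against 29.9 to 39.1 CPM in saline lungs (−2.67 ± 0.33, adjusted p = 9.29e-11). Bleomycin replicate 3 was nearest to saline for both genes.

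Asgr1, a subunit of the asialoglycoprotein receptor, changed by −2.68 ± 0.41 on the log2 scale, Slc5a12, a sodium-coupled transporter of lactate, by −2.63 ± 0.49, and the cystatin family gene Cst8 by −2.84 ± 0.37. Replicate 3 held some values close to saline. Without it the log2 fold change was −3.84 for Hes2 against −2.87 with it, −3.27 for Fabp1, a fatty acid binding protein gene, against −2.67, and −2.98 for Gria1, a glutamate receptor gene, against −2.32. Tbata (−2.26 ± 0.34), Dcdc2a (−2.21 ± 0.32), Krt79 (−2.82 ± 0.37) and the lipoxygenase gene Alox15 (−2.23 ± 0.46) completed the 12 largest falls.

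**Figure D2:**
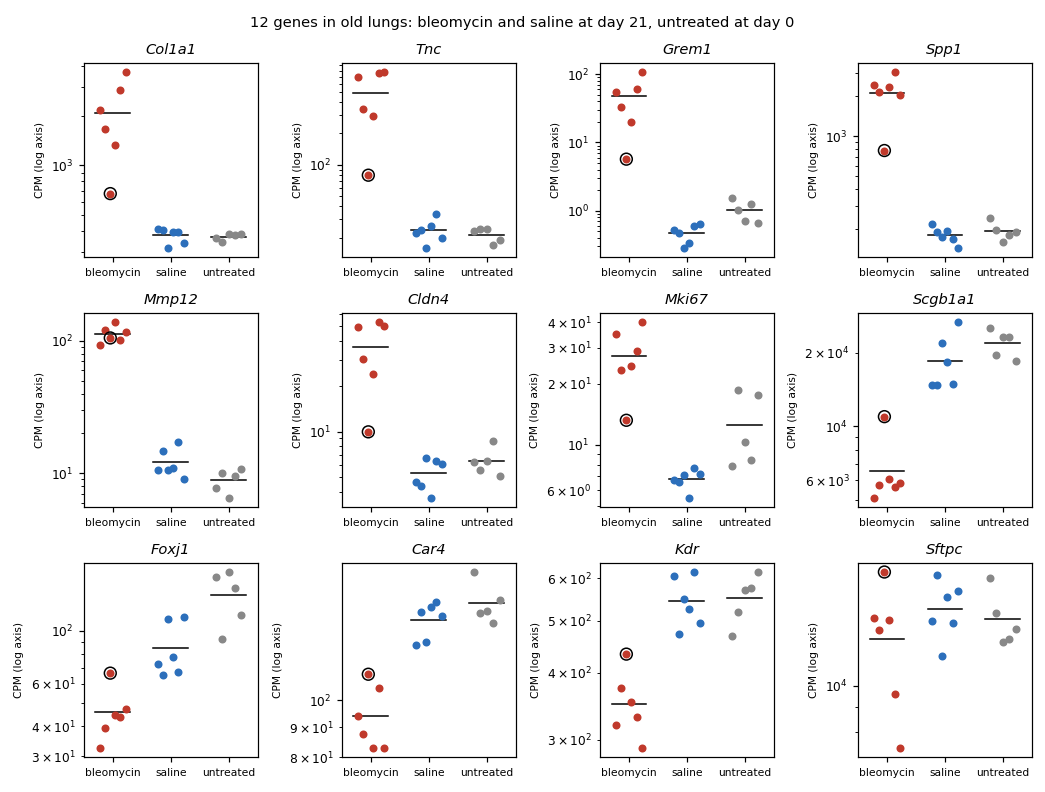
Level of 12 genes in each old lung (CPM, log axis) for bleomycin day 21, saline day 21 and untreated day 0, with 1 point per lung, a line at the group mean and a ring around bleomycin replicate 3. Col1a1, Tnc, Grem1, Spp1, Mmp12, Cldn4 and Mki67 are higher in all 6 bleomycin lungs than in any saline lung, Scgb1a1, Car4 and Kdr are lower in all 6, Foxj1 overlaps by 1 bleomycin lung, and Sftpc overlaps, with 3 of 6 bleomycin lungs inside the saline range.

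Collagen genes rose almost throughout. All 12 fibrillar and fibril-associated collagens tested rose, with a median log2 fold change of 2.06, and for 11 of them the groups did not overlap. Col1a1, the main chain of type I collagen at chr11:94936224-94953042, had 2163, 1668, 674, 1320.2, 2855 and 3680.4 CPM in bleomycin lungs, against 409, 404, 315, 397, 395 and 340.3 CPM in saline lungs. Its log2 fold change was 2.45 ± 0.29 (adjusted p = 1.89e-11), and the saline lungs lay far closer together than the bleomycin lungs. Col3a1 of type III collagen had a lowest, median and highest value of 1382, 2885 and 3739 CPM in bleomycin lungs, against 479, 647 and 733 CPM in saline lungs (2.16 ± 0.22). Col5a2, a chain of the type V collagen that nucleates fibrils, rose by 2.56 ± 0.27. Col24a1, a minor fibrillar collagen, had 713 reads over the bleomycin libraries and 29 over the saline libraries (4.92 ± 0.49). Col27a1 rose least, by 0.35 ± 0.12, and was the member whose groups overlapped.

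Among 14 other collagens 10 rose and 2 fell (median 1.06). The type VI collagen genes Col6a1, Col6a2 and Col6a3, whose product forms beaded microfibrils, rose by 0.96 ± 0.12, 0.91 ± 0.13 and 1.14 ± 0.19. Col15a1 and Col28a1 rose more, by 2.25 ± 0.29 and 2.23 ± 0.29. Col10a1, best known from growth plate cartilage, had 270 reads over the bleomycin libraries and 4 over the saline libraries. Col17a1, the collagen of epithelial hemidesmosomes, fell, with 0.907, 2.25 and 5.70 CPM as lowest, median and highest bleomycin lung, against 8.66, 9.67 and 10.4 CPM in saline lungs (−1.82 ± 0.31). Col8a2 also fell (−0.71 ± 0.14), while its partner chain Col8a1 rose (0.99 ± 0.22).

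Glycoproteins of the matrix followed the collagens, with 19 rises and no fall among 24 genes and a median of 1.26. Fn1, at chr1:71585520-71653200, encodes fibronectin, and it had 1122, 3740.4 and 6873 CPM as lowest, median and highest bleomycin lung, against 433, 567 and 619.9 CPM in saline lungs (2.81 ± 0.32, adjusted p = 5.62e-12). Tnc, at chr4:63959785-64047015, encodes tenascin C, a matrix protein made during repair. It had 703, 343, 79.6, 297, 759.9 and 779 CPM in bleomycin lungs, against 15.9 to 34.1 CPM in saline lungs (4.38 ± 0.42, adjusted p = 3.49e-15). Eln, the elastin gene, had a median of 3315 CPM in bleomycin lungs and 562 CPM in saline lungs (2.44 ± 0.28). Each bleomycin lung exceeded each saline lung for all 3 genes. Postn, the periostin gene, often used as a marker of fibrosis, did not pass the test, with 311 to 412 CPM in bleomycin lungs and 321 to 373 CPM in saline lungs (0.14 ± 0.092, adjusted p = 0.218).

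Proteoglycans were divided, with 9 rises and 2 falls among 17 genes and a median of 0.64. Fmod and Lum encode fibromodulin and lumican, small leucine-rich proteoglycans that regulate the width of collagen fibrils, and they rose by 2.43 ± 0.35 and 1.88 ± 0.29. Ogn and Omd, which encode osteoglycin and osteomodulin of the same protein family, fell. Ogn had 133.99, 153 and 271 CPM as lowest, median and highest bleomycin lung, against 363, 399 and 418 CPM in saline lungs, with no overlap (−1.22 ± 0.12, adjusted p = 2.56e-15), and Omd changed by −1.83 ± 0.26. Dcn, the decorin gene, rose little (0.36 ± 0.14), and Hapln1, a link protein that stabilises hyaluronan aggregates, rose by 3.14 ± 0.43.

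In the basement membrane, the thin matrix sheet under epithelium and endothelium, 17 of 18 genes rose and 1 fell (median 0.69). Lama1, a laminin chain of early embryonic basement membranes, had 30.03, 76.5 and 122.3 CPM as lowest, median and highest bleomycin lung, against 6.00, 7.38 and 14.5 CPM in saline lungs (3.02 ± 0.32). Col4a1 and Col4a2, the most widespread type IV collagen chains, rose by 1.58 ± 0.16 and 1.41 ± 0.15. Col4a3, Col4a4 and Col4a5, which form a network of their own in alveolar walls, rose less, by 0.69 ± 0.17, 0.54 ± 0.13 and 0.67 ± 0.11. The gene that fell was Col4a6 (−0.42 ± 0.14).

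Enzymes that fold, trim and cross-link collagen rose with their substrates, with 19 rises and 1 fall among 23 genes and a median of 0.76. Lox, which encodes lysyl oxidase, the enzyme that starts collagen and elastin cross-links, had 124.2, 246 and 425 CPM as lowest, median and highest bleomycin lung, against 60.6, 80.4 and 84.05 CPM in saline lungs (1.75 ± 0.26, adjusted p = 1.45e-08). All 5 genes of the lysyl oxidase family rose, Loxl2 the most at 1.87 ± 0.23. Serpinh1, which encodes the collagen chaperone HSP47, rose by 1.03 ± 0.14, and Adamts2, which removes the amino-terminal propeptide of procollagen, by 1.75 ± 0.19. P4ha3, an alpha subunit of collagen prolyl 4-hydroxylase, rose by 3.88 ± 0.46, while P4ha1 did not pass (0.14 ± 0.14, adjusted p = 0.456). The fall was Pcolce2, an enhancer of propeptide cleavage, with medians of 124.5 CPM in bleomycin lungs and 305 CPM in saline lungs (−1.18 ± 0.21).

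Matrix-degrading proteases were also high, with 17 rises and 2 falls among 20 genes and a median of 1.53. Mmp12, the macrophage elastase gene at chr9:7344381-7369499, had 93.3, 120.4, 105.1, 138.8, 101.9 and 116.2 CPM in bleomycin lungs, against 10.5, 14.6, 10.5, 10.99, 17.2 and 9.03 CPM in saline lungs (3.21 ± 0.43, adjusted p = 1.37e-09). Replicate 3 was not apart for Mmp12. Mmp2, a gelatinase of fibroblasts, had 399, 641 and 711 CPM as lowest, median and highest bleomycin lung, against 107.8, 144.4 and 171 CPM in saline lungs (2.10 ± 0.17, adjusted p = 1.60e-18), and its membrane-bound activator Mmp14 rose by 1.89 ± 0.19. Mmp10, which encodes stromelysin 2, had 76, 53, 4, 48, 64 and 80 reads in the bleomycin libraries and 0 in all 6 saline libraries, at least 135.5-fold higher against a floor of 3 reads over the saline group. The cathepsin genes Ctss, Ctsk, Ctsd, Ctsb and Ctsl, whose products work mainly in lysosomes, rose by 2.26 ± 0.20, 1.73 ± 0.27, 1.64 ± 0.19, 1.36 ± 0.14 and 0.92 ± 0.15. Mmp9, a gelatinase that neutrophils store, fell, with 11.6 to 21.6 CPM in bleomycin lungs and 39.2 to 70.6 CPM in saline lungs (−1.81 ± 0.32). The neutrophil genes given below fell with Mmp9, and their part in its change was not tested.

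Protease inhibitors rose in 10 of 14 cases with 1 fall and a median of 0.47. Timp1, the inducible tissue inhibitor of metalloproteinases, had 119.7, 46.03, 15.8, 43.1, 126.7 and 100.8 CPM in bleomycin lungs, against 3.26 to 8.46 CPM in saline lungs (3.54 ± 0.41, adjusted p = 5.34e-12). Its relatives differed from it, since Timp2 rose by 0.27 ± 0.068, Timp3 did not pass (0.13 ± 0.12, adjusted p = 0.424) and Timp4 fell (−1.33 ± 0.32). Among 14 genes of coagulation and fibrinolysis 8 rose and 2 fell (median 0.50). F7, the factor VII gene, rose by 1.44 ± 0.20 and Procr, the endothelial protein C receptor gene, by 0.98 ± 0.14, while F5, the factor V gene, fell (−1.56 ± 0.39) together with the thrombomodulin gene Thbd (−0.36 ± 0.10).

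Ligands, activators and receptors of TGF-beta rose in 15 of 22 cases and fell in 4, with a median of 0.59. All 3 ligand genes rose. Tgfb1 had 98.2, 123.2 and 132.9 CPM as lowest, median and highest bleomycin lung, against 79.9, 83.2 and 93.3 CPM in saline lungs (0.50 ± 0.07, adjusted p = 3.30e-09), Tgfb2 rose by 0.65 ± 0.11 and Tgfb3 by 0.998 ± 0.13. The integrin genes Itgav, Itgb6 and Itgb8, whose products release TGF-beta from its latent form, rose by 0.72 ± 0.093, 0.86 ± 0.16 and 0.95 ± 0.20. Inhba, which encodes the activin A chain, rose by 3.005 ± 0.45, and Fst, which encodes the activin antagonist follistatin, by 2.41 ± 0.41. The signalling receptors Tgfbr1 and Tgfbr2 rose by 0.74 ± 0.083 and 0.66 ± 0.086. The falls were the coreceptor Tgfbr3 (−0.78 ± 0.11), the endothelial receptors Eng (−0.84 ± 0.13) and Acvrl1 (−0.64 ± 0.11), and the latency protein gene Ltbp4 (−0.58 ± 0.11).

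Genes known to respond to TGF-beta gave 7 rises and 2 falls among 13, with a median of 1.01, and this list shares genes such as Col1a1, Ltbp2 and Loxl2 with the lists above. Bhlhe40, a transcription factor gene, rose by 1.501 ± 0.18 and Pmepa1, a feedback inhibitor of the pathway, by 1.16 ± 0.17. Another feedback inhibitor, Smad7, fell (−0.48 ± 0.095). Ccn1, a matricellular gene also induced by mechanical strain, fell, with 278 to 471 CPM in bleomycin lungs and 512 to 904 CPM in saline lungs (−1.01 ± 0.24), whereas its relative Ccn2, the connective tissue growth factor gene, did not pass (0.35 ± 0.20, adjusted p = 0.150).

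The BMP list held 5 rises (3 without bleomycin replicate 6) and 7 falls among 21 genes, with a median of 0.02. Besides Grem1, the antagonist gene Nog rose (1.63 ± 0.32), but the antagonist Chrdl1 fell (−1.04 ± 0.14). The ligand gene Bmp6 had 50.8 to 158 CPM in bleomycin lungs and 191 to 242 CPM in saline lungs (−1.38 ± 0.20), and the receptor gene Bmpr2 fell by less (−0.55 ± 0.11). Smad6, an inhibitor and target of BMP signalling, fell (−0.95 ± 0.19), while the targets Id1, Id2 and Id3 did not pass, with log2 fold changes between −0.13 and 0.20.

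In the Wnt pathway 8 of 26 genes rose and 5 fell (median −0.016). Wnt10a had 332 reads over the bleomycin libraries and 15 over the saline libraries, and Wnt7b and Wnt5a rose by 1.33 ± 0.17 and 1.24 ± 0.15. The mesenchymal ligand genes Wnt2 (−0.85 ± 0.16) and Wnt10b (−1.35 ± 0.20) fell. Secreted inhibitors went both ways, since Dkk2 (4.24 ± 0.53), Sfrp1 (2.46 ± 0.28) and Sfrp2 (1.28 ± 0.26) rose and Wif1 fell (−1.28 ± 0.22). Axin2, a target gene of canonical Wnt signalling, did not pass (−0.15 ± 0.094, adjusted p = 0.199).

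Growth factors gave 7 rises and 5 falls among 19 genes, with a median of 0.19. Igf1, insulin-like growth factor 1, had 50.4, 147.3 and 184 CPM as lowest, median and highest bleomycin lung, against 16.7, 18.4 and 19.5 CPM in saline lungs (2.90 ± 0.28, adjusted p = 3.93e-15). The epidermal growth factor receptor ligands Ereg and Areg rose by 3.45 ± 0.56 and 1.40 ± 0.26, and Pdgfc, a platelet-derived growth factor gene, by 1.72 ± 0.21. The epithelial growth factor genes Fgf7 (−0.44 ± 0.11) and Fgf10 (−0.28 ± 0.11) fell, as did Vegfa (−0.28 ± 0.076). Among 8 genes of insulin-like growth factor binding and uptake 3 rose and 3 fell (median 0.14). Igfbp3 showed the largest of these changes, with 20.4 to 46.3 CPM in bleomycin lungs and 77.9 to 119.1 CPM in saline lungs (−1.66 ± 0.21).

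Markers of activated fibroblasts rose in 7 of 12 cases with 1 fall and a median of 0.72, and this list shares Tnc, Grem1 and Postn with lists above. Adam12, a metalloprotease gene, rose by 2.30 ± 0.33, and Lrrc15 had 275 reads over the bleomycin libraries and 15 over the saline libraries. Cthrc1, a marker of collagen-producing fibroblasts, had 5.55, 14.0 and 25.8 CPM as lowest, median and highest bleomycin lung, against 5.13, 6.17 and 8.27 CPM in saline lungs (1.14 ± 0.26). Contractile genes of myofibroblasts and smooth muscle did not follow, with 2 rises and 3 falls among 12 and a median of 0.086. Acta2, which encodes smooth muscle actin, the usual myofibroblast marker, had 127.7, 235 and 291 CPM in bleomycin lungs, against 171, 202 and 236 CPM in saline lungs as lowest, median and highest (0.10 ± 0.17, adjusted p = 0.665). The smooth muscle myosin gene Myh11 fell (−0.46 ± 0.15).

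Among resident fibroblast genes, those of alveolar fibroblasts and lipofibroblasts leaned to lower values, while adventitial genes were split. Among 12 markers of alveolar fibroblasts and lipofibroblasts 7 fell and 2 rose, with a median of −0.37. Inmt, an indolethylamine methyltransferase gene, had 329, 552 and 1298 CPM as lowest, median and highest bleomycin lung, against 1582, 1910.3 and 2057 CPM in saline lungs (−1.55 ± 0.22). Slc7a10, an amino acid transporter gene, fell by 2.13 on the log2 scale, and Tcf21, a lipofibroblast transcription factor gene, by 0.58. Among 12 adventitial fibroblast genes 5 rose and 4 fell (median 0.028), with the microfibril gene Mfap5 up (1.43 ± 0.19) and Pi16 down (−0.96 ± 0.19). Pericyte and vascular smooth muscle genes gave 3 rises and 2 falls among 12 (median 0.16), led by the proteoglycan gene Cspg4 (0.86 ± 0.16). Of 10 mesothelial genes 1 rose, Msln (1.13 ± 0.24), which transitional epithelium can also express, and 2 fell (median −0.078).

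In the alveolar epithelium transitional genes rose while most main markers did not pass the test. Type 2 cells make surfactant, and of 15 of their genes 2 rose and 1 fell (median −0.087). Sftpc had 13874, 13102, 17378, 13793, 9604 and 7381 CPM in bleomycin lungs, against 11533 to 17159 CPM in saline lungs, and did not pass (−0.21 ± 0.18, adjusted p = 0.351). Replicates 5 and 6 were below all saline lungs and replicate 3 was above them all. Sftpd, the gene of surfactant protein D, a lectin of innate defence, rose (0.58 ± 0.13), while Sftpa1 fell (−0.48 ± 0.16), a call that was lost without replicate 6 (−0.36), with only these 2 groups in the fit and with a score of daily clock genes as covariate. Type 1 cells form the thin gas exchange surface, and of 14 of their genes 4 rose and 3 fell (median 0.11). The membrane protein gene Pdpn rose (0.60 ± 0.15) and the homeodomain gene Hopx fell (−0.56 ± 0.17), with Ager, the best known type 1 marker, not passing (0.23 ± 0.14, adjusted p = 0.187).

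Transitional alveolar genes rose in 16 of 18 cases with no fall, a median of 0.98 and no overlap for 12. Cldn4, a tight junction gene, had 49.3, 30.1, 9.95, 24.1, 53.3 and 50.03 CPM in bleomycin lungs, against 3.61 to 6.70 CPM in saline lungs (2.77 ± 0.39, adjusted p = 4.82e-09). Krt8, the keratin after which the state is named, had 157, 190.4 and 232 CPM as lowest, median and highest bleomycin lung, against 88.6, 113.7 and 136.9 CPM in saline lungs (0.78 ± 0.13, adjusted p = 1.71e-07). Sfn, which encodes the checkpoint protein stratifin, rose by 1.503 ± 0.19, Clu, the clusterin gene, by 1.33 ± 0.13, and Lgals3, the galectin 3 gene, by 1.10 ± 0.16, though macrophages also express the last. Krt19 (0.069 ± 0.13) and Nupr1 (−0.15 ± 0.11) did not pass. Basal cell genes stayed near the detection limit, with Krt5 at 0 to 0.726 CPM in bleomycin lungs and 0 to 0.236 CPM in saline lungs. Of 9 basal and squamous genes tested 2 rose and 1 fell (median −0.12), and the fall was Krt13, with 0 reads over the bleomycin libraries and 47 over the saline libraries, at least 12.5-fold lower against a floor of 3 reads over the bleomycin group.

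Airway lists held falls and no rise. Club cells are secretory cells of the small airways, and of 16 of their genes 9 fell and none rose, with a median of −1.20. Scgb1a1, the main club cell secretoglobin at chr19:9083636-9087958, had 5077, 5749.8, 10938, 6111, 5654 and 5843 CPM in bleomycin lungs, against 14776, 14741, 21827, 18224, 14832 and 26662 CPM in saline lungs (−1.496 ± 0.21, adjusted p = 3.60e-09). The groups did not overlap, although bleomycin replicate 3 stood well above the other bleomycin lungs. Cyp2f2, a cytochrome P450 of club cells, changed by −1.56 ± 0.24, and Aldh1a1, a retinaldehyde dehydrogenase gene, by −1.17 ± 0.16. Mucin genes did not pass, with log2 fold changes of 0.40 ± 0.48 for Muc5ac and −0.46 ± 0.52 for Muc5b.

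All 13 ciliated cell genes tested fell, with a median of −1.30, and for 10 the groups did not overlap. Foxj1, the master transcription factor of motile cilia, had 32.4, 39.3, 66.5, 44.6, 43.9 and 47.4 CPM in bleomycin lungs, against 72.3, 65.5, 111.8, 77.8, 67.1 and 113.9 CPM in saline lungs (−0.89 ± 0.21, adjusted p = 2.82e-04). Only replicate 3 reached the saline range. The apical cilium gene Sntn changed by −1.61 ± 0.24, Hydin, of the central pair apparatus, by −1.46 ± 0.29, and the axonemal dynein gene Dnah5 by −1.18 ± 0.28. The untreated lungs overlapped the saline lungs and reached higher: the mean log2 CPM over the ciliated list was 3.40 to 4.41 in bleomycin lungs, 4.70 to 5.63 in saline lungs and 5.14 to 5.80 in untreated lungs. How much large airway each tissue piece held is not given, and its part in these falls was not tested.

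Endothelial genes were mostly lower by less than 1 on the log2 scale. Of 14 capillary genes 8 fell and none rose, with a median of −0.44. Kdr, the vascular endothelial growth factor receptor 2 gene, had 319, 374, 433, 352, 330.0 and 289 CPM in bleomycin lungs, against 473 to 615 CPM in saline lungs (−0.64 ± 0.13). Car4, a carbonic anhydrase of the large alveolar capillary cell, had 82.8 to 110.9 CPM in bleomycin lungs and 124.4 to 147.4 CPM in saline lungs (−0.55 ± 0.12). Both were lower in each bleomycin lung than in each saline lung. Ednrb, an endothelin receptor gene of the same cell, changed most (−1.48 ± 0.22). Of 14 pan-endothelial genes 11 fell and 1 rose (median −0.31), with Pecam1 at −0.36 ± 0.074 and the angiopoietin receptor gene Tek at −0.63 ± 0.10, while the transcription factor gene Sox17 rose (0.44 ± 0.11).

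Venous, systemic and activated endothelial genes went the other way, with 7 rises and 2 falls among 14 and a median of 0.37. Ackr1, a chemokine scavenger of venules, had 5.77, 1.75, 1.21, 2.61, 6.05 and 5.69 CPM in bleomycin lungs, against 0.261 to 0.767 CPM in saline lungs (2.85 ± 0.41). Lrg1, which modulates TGF-beta signalling in vessels, rose by 1.69 ± 0.24, Selp, the leukocyte adhesion gene of P-selectin, by 1.32 ± 0.26, and Vwa1 by 1.46 ± 0.20. Arterial and lymphatic genes were split, with 6 rises and 5 falls among 13 and a median of 0.16. The arterial gene Bmx (−0.88 ± 0.11) and the Notch target Hey1 (−0.65 ± 0.14) fell, while the lymphatic genes Prox1 (1.45 ± 0.21) and Reln (0.91 ± 0.20) rose.

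Among 20 genes of recruited macrophages 18 rose, none fell and the median was 1.92, with no overlap for 16. Apoe, which encodes the lipid carrier apolipoprotein E at chr7:19696109-19699188, had 2329.6, 2304, 1934, 2214, 2354 and 2845 CPM in bleomycin lungs, against 737, 824, 567, 630.3, 609.8 and 638 CPM in saline lungs. Its log2 fold change of 1.80 ± 0.14 had the smallest adjusted p of all genes, 1.62e-19. Spp1, the osteopontin gene at chr5:104435118-104441050, had 2442, 2137, 782, 2333, 3043 and 2038 CPM in bleomycin lungs, against 144.8 to 219.5 CPM in saline lungs (3.54 ± 0.35, adjusted p = 1.15e-14). Trem2, a lipid-sensing receptor gene of scar-associated macrophages, had 40.9 to 63.98 CPM in bleomycin lungs and 5.95 to 10.6 CPM in saline lungs (2.62 ± 0.24). Replicate 3 was the lowest bleomycin lung for all 3 genes and still above each saline lung. Gpnmb, a glycoprotein gene of lipid-laden macrophages, rose by 2.69 ± 0.28, and Arg1, the arginase 1 gene, by 3.17 ± 0.65. Ccr2, the receptor that draws in monocytes, did not pass (−0.032 ± 0.19, adjusted p = 0.910).

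Genes of tissue-resident alveolar macrophages were split, with 4 rises and 6 falls among 15 and a median of 0.035. Siglecf, the defining surface marker, fell (−0.56 ± 0.14), and Ear1 (−1.92 ± 0.23), Krt79 and Fabp1 fell more. Krt79 had 1.99, 2.74, 9.17, 3.41, 1.82 and 2.18 CPM in bleomycin lungs, against 15.9 to 32.01 CPM in saline lungs. Those that rose, Itgax (1.26 ± 0.14), Atp6v0d2 (1.35 ± 0.17), F7 (1.44 ± 0.20) and the mannose receptor gene Mrc1 (0.94 ± 0.15), are also expressed by other macrophages. Interstitial macrophage genes gave 5 rises and 3 falls among 12 (median 0.036), with Ccl8 up (1.45 ± 0.41) and Cd209f down (−1.38 ± 0.28).

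Genes used to describe macrophage polarisation rose in 9 of 14 cases with 1 fall and a median of 1.01. They came from both ends of that scale, since Arg1 and Retnla (2.48 ± 0.48), induced by interleukin 4, and Nos2 (2.08 ± 0.25), the nitric oxide synthase gene induced by interferon gamma, all rose. The fall was Il1b (−0.73 ± 0.30), and its call was lost without bleomycin replicate 3, 4, 5 or 6 or saline replicate 2, 5 or 6. Lysosome and lipid-handling genes rose in 16 of 17 cases, with a median of 0.76, among them the scavenger receptor gene Msr1 (2.64 ± 0.31), Cd68 (1.37 ± 0.18), the prosaposin gene Psap (1.19 ± 0.14) and the cholesterol exporter gene Abca1 (1.17 ± 0.15). The exception was the fatty acid transporter gene Cd36 (−0.27 ± 0.087), which capillary endothelium also expresses. Of 16 complement genes 10 rose and 1 fell (median 0.53). The 3 C1q chain genes rose by 2.12 to 2.29 on the log2 scale and the anaphylatoxin receptor gene C3ar1 by 2.24 ± 0.22, while C7 of the membrane attack complex fell (−0.59 ± 0.18).

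Dendritic cell genes gave 6 rises and 2 falls among 12, with a median of 0.38. Fscn1, the fascin gene of mature dendritic cells, which fibroblasts and other cells also express, had 40.8, 76.5 and 93.2 CPM as lowest, median and highest bleomycin lung, against 15.3, 18.7 and 24.9 CPM in saline lungs (1.94 ± 0.17). Siglech, a marker of plasmacytoid dendritic cells, fell (−1.44 ± 0.30). Of 10 genes of MHC class II presentation 6 rose and 1 fell (median 0.45). The invariant chain gene Cd74 rose by 0.58 ± 0.14 and H2-Ab1 by 0.53 ± 0.15, and the fall was H2-Ob (−0.86 ± 0.31), a chain of a class II modulator that B cells express.

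Granulocyte genes were lower. Of 10 neutrophil genes tested 5 fell and none rose, with a median of −1.32. S100a9, a calcium-binding alarmin gene, had 15.5, 35.0 and 39.4 CPM as lowest, median and highest bleomycin lung, against 96.5, 129.5 and 169.9 CPM in saline lungs (−2.14 ± 0.45), and the chemokine receptor gene Cxcr2 and the growth factor receptor gene Csf3r changed by −1.96 ± 0.38 and −1.74 ± 0.33. These 3 genes did not overlap between groups. Mast cell, basophil and eosinophil genes gave 7 falls and no rise among 13, with a median of −1.08. Mcpt8, a basophil protease gene, changed by −2.73 ± 0.74, and Ms4a2, a chain of the IgE receptor, by −2.08 ± 0.47. Cpa3, a mast cell protease gene, had 0.262, 0.199, 0.0966, 0.852, 0.160 and 0.0605 CPM in bleomycin lungs, against 0.661 to 0.981 CPM in saline lungs (−1.56 ± 0.40), and −2.31 without bleomycin replicate 4.

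T cell genes showed few changes, with 4 rises and no fall among 18 and a median of 0.063. Foxp3, the transcription factor of regulatory T cells, had 2.15, 2.19, 1.304, 2.05, 4.39 and 3.81 CPM in bleomycin lungs, against 0.478, 0.436, 0.803, 0.713, 1.19 and 0.364 CPM in saline lungs (1.99 ± 0.35, adjusted p = 9.75e-07). The groups did not overlap. Ccr4 (1.23 ± 0.34), Il2ra (0.72 ± 0.17) and Pdcd1 (1.34 ± 0.51, lost without bleomycin replicate 6 or saline replicate 4 or 6) were the other rises, while the T cell receptor complex genes Cd3d, Cd3e and Cd3g did not pass, with log2 fold changes between −0.38 and −0.20. Cytotoxic and natural killer cell genes gave 4 falls and no rise among 12 (median −0.64), with Klrb1c, a natural killer receptor gene, at −1.30 ± 0.39. That count was 1 to 6 when lungs were left out in turn.

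Of 12 B cell genes 8 fell and none rose (median −0.93), but for none of the 12 did the groups avoid overlap. Cd79b, a signalling chain of the B cell receptor, had 11.02, 17.1 and 27.9 CPM as lowest, median and highest bleomycin lung, against 22.6, 37.4 and 43.4 CPM in saline lungs (−0.96 ± 0.34, adjusted p = 0.0149). The count of 8 was 2 without bleomycin replicate 5, up to 10 without other lungs, and 0 with a clock score as a covariate. Plasma cell and immunoglobulin genes gave 4 rises and 1 fall among 18, with a median of 0.55. Igha, the constant chain of IgA, had 399, 1139, 295, 1045, 712 and 508 CPM in bleomycin lungs, against 89.7, 219.9, 149.7, 270.1, 224 and 431 CPM in saline lungs (1.57 ± 0.62, adjusted p = 0.0343). The call of Igha was lost without bleomycin replicate 2 or 4 or saline replicate 1, 2 or 3, and the count of 4 was 1 to 6 when lungs were left out in turn. Ighg3 rested on bleomycin replicate 6, at 71.6 CPM, and its log2 fold change of 2.05 was 0.13 without that lung. Of 13 lymphoid follicle genes 3 rose and 2 fell (median −0.093).

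Among 23 chemokine genes 13 rose and 2 fell (median 0.77). The monocyte attractant gene Ccl2 had 5.94, 13.4 and 21.2 CPM as lowest, median and highest bleomycin lung, against 1.61, 2.97 and 3.78 CPM in saline lungs (2.21 ± 0.32), and Ccl7 rose by 1.88 ± 0.32. Cxcl16 rose by 0.90 ± 0.10 with no overlap. The falls were Cx3cl1 (−0.55 ± 0.085) and Cxcl5 (−1.19 ± 0.47), an attractant of neutrophils. Of 19 interleukin and receptor genes 12 rose and 2 fell (median 0.51). Il11, a cytokine gene of fibroblasts, rose by 1.67 ± 0.29, Lif, of the same cytokine family, by 1.301 ± 0.22 and the alarmin gene Il33 by 0.79 ± 0.13, while the receptor gene Il6ra fell (−0.68 ± 0.12). Of 19 interferon response genes 6 rose and none fell (median 0.37), with the antiviral gene Ifit1 at 0.86 ± 0.20. That count was 3 without bleomycin replicate 3.

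Genes of mitosis rose in 19 of 20 cases with no fall and a median of 1.74, and for 15 the groups did not overlap. Mki67, the gene of the proliferation antigen Ki-67, had 34.9, 23.2, 13.2, 24.3, 28.9 and 40.1 CPM in bleomycin lungs, against 5.47 to 7.72 CPM in saline lungs (2.01 ± 0.39, adjusted p = 1.04e-05). The untreated lungs had 7.87, 18.5, 10.3, 8.44 and 17.6 CPM, and their replicates 2 and 5 were above bleomycin replicate 3. The mean log2 CPM over the mitosis list was 1.58 to 2.83 in bleomycin lungs, 0.63 to 1.12 in saline lungs and 1.03 to 1.81 in untreated lungs. Cdk1, the kinase gene that drives entry into mitosis, had 2.27, 5.29 and 8.18 CPM as lowest, median and highest bleomycin lung, against 0.782, 0.844 and 1.296 CPM in saline lungs (2.52 ± 0.35, adjusted p = 3.40e-09). Cdc20, an activator of the anaphase-promoting complex, rose by 1.03 ± 0.17, and Ube2c, its ubiquitin-conjugating enzyme, by 1.70 ± 0.33. Bub1, a spindle checkpoint kinase gene, was the member that did not pass (−0.06 ± 0.18, adjusted p = 0.818). Of 16 DNA replication genes 9 rose and none fell (median 0.33), with Rrm2, a subunit of ribonucleotide reductase, at 1.58 ± 0.34 and Pcna not passing (0.033 ± 0.085, adjusted p = 0.785).

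The promoters of 4 mitosis genes are shown because members of this list moved together. Genes of this class are known for CCAAT boxes, bound by the factor NF-Y, and for the cell cycle homology region element with the letters TTTGAA. Each sequence is the 250 bases before the annotated start in RefSeq (GRCm38.p6), written 5′ to 3′ in the direction of the gene, and capitals mark CCAAT or TTTGAA on either strand, so that ATTGG and TTCAAA mark the reverse strand. They lie at chr10:69352913-69353162 (Cdk1, minus strand), chr7:135716380-135716629 (Mki67, minus strand), chr4:118437344-118437593 (Cdc20, minus strand) and chr2:164769679-164769928 (Ube2c, plus strand).
Cdk1: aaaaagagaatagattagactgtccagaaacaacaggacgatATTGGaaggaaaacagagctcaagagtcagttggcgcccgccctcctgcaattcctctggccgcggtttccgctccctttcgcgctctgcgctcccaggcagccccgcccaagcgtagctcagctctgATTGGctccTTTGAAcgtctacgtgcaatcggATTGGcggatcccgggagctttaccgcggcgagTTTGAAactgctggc
Mki67: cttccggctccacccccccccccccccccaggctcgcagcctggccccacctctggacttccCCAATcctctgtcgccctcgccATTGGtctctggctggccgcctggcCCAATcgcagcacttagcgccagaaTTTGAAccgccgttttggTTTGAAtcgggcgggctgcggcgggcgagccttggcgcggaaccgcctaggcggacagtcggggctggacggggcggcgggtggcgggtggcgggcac
Cdc20: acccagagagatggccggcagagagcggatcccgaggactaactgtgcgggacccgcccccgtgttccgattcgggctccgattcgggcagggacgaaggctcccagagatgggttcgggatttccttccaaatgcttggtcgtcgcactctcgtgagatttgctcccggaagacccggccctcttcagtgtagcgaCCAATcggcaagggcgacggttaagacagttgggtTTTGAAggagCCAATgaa
Ube2c: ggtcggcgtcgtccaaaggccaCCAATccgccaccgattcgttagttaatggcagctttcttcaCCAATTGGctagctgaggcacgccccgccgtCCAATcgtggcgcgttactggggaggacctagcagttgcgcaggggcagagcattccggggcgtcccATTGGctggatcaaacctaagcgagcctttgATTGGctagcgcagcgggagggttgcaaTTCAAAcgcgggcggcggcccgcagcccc
Cdk1 held CCAAT at 208, 80 and 48 bases before the start and TTTGAA at 71 and 15. Mki67 held CCAAT at 3 positions, the farthest at 188, and TTTGAA at 2, the nearest at 98, and Cdc20 held CCAAT at 53 and 8 and TTTGAA at 18. Ube2c held CCAAT at 228, 186, 183, 155, 88 and 57, of which those at 186 and 183 overlap on opposite strands, and TTTGAA at 29. Over all 16 mitosis genes with a promoter entry, CCAAT was found on either strand in 14 (87.5%), TTTGAA in 8 (50%) and both in 7 (43.8%). Among 12878 promoters of tested genes, which are 70.2% of those named by the annotation, CCAAT was found in 35.3%, TTTGAA in 11.4% and both in 4.15%. A match is a description of the letters and not of binding.

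Targets of p53, the factor activated by DNA damage, rose in 8 of 16 cases with 1 fall and a median of 0.29, and 4 of them rose with the clock score as covariate. Zmat3, an RNA-binding protein gene, had 89.4 to 123.6 CPM in bleomycin lungs and 50.3 to 74.2 CPM in saline lungs (0.83 ± 0.11), and Ccng1, the cyclin G1 gene, rose by 0.54 ± 0.10. Mdm2, which feeds back on p53, did not pass (0.078 ± 0.076, adjusted p = 0.434). Among 16 genes of senescence and its secretome 11 rose and 1 fell (median 0.57), and the fall was Igfbp3, given above. Cdkn2a, which encodes the cell cycle inhibitors p16 and p19, had 3.78, 3.79, 3.43, 3.18, 3.69 and 6.41 CPM in bleomycin lungs, against 1.43, 1.71, 1.09, 1.43, 1.32 and 0.567 CPM in saline lungs (1.68 ± 0.30, adjusted p = 2.38e-06). The groups did not overlap. Cdkn1a, the p21 gene, rose by 0.55 ± 0.13 and overlapped because 1 saline lung had 502 CPM, and Glb1, whose enzyme is the basis of a senescence stain, rose by 0.75 ± 0.094.

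Genes of hypoxia and glycolysis rose in 14 of 17 cases with 1 fall and a median of 0.49. Ankrd37, a target of hypoxia-inducible factor, rose by 2.04 ± 0.31, Hif1a itself by 0.79 ± 0.10, and the lactate dehydrogenase gene Ldha by 0.65 ± 0.11. Gapdh, Pgk1 and Pgam1 of this list share sequence with processed pseudogenes and are uncertain, since the rule for reads with several matches is not given in the sources used here. Of 16 genes of the unfolded protein response 7 rose and 1 fell (median 0.23), with the chaperone gene Hspa5 at 0.50 ± 0.14 and Herpud1 at −0.37 ± 0.12. Nuclear genes of oxidative phosphorylation gave 3 rises and 1 fall among 18, with a median of 0.045. All 6 tested genes of the mitochondrial genome fell with no overlap (median −0.53), and mt-Nd2 had 705 to 979.9 CPM in bleomycin lungs and 1520.0 to 1858 CPM in saline lungs (−0.91 ± 0.14).

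Among 18 genes of surfactant lipid and sterol synthesis 3 rose and 4 fell (median 0.052), but 6 rose and 2 fell without bleomycin replicate 6, and the falls were 1 to 5 when other lungs were left out, with 1 without bleomycin replicate 5 or saline replicate 1. Among the members that passed were the sterol enzyme gene Mvd at 0.68 ± 0.13 and the sterol feedback gene Insig1 at −0.38 ± 0.10. Of 16 genes of oxidative stress and iron handling 8 rose and 2 fell (median 0.29). Hmox1, the haem oxygenase 1 gene, rose by 1.19 ± 0.17 and the metallothionein gene Mt2 by 1.64 ± 0.29, while Nqo1 (−0.77 ± 0.14) and the catalase gene Cat (−0.62 ± 0.10) fell.

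Several lists were kept for tissue carried along with the lung. Cardiac muscle, which lines the large pulmonary veins of mice, gave 9 falls and no rise among 11 genes, with a median of −1.43. Actc1, the cardiac actin gene, had 9.38 to 40.2 CPM in bleomycin lungs and 44.1 to 110.2 CPM in saline lungs (−1.54 ± 0.34). The mean log2 CPM over the cardiac list was 2.08 to 3.57 in bleomycin lungs, 3.07 to 5.31 in saline lungs and 4.98 to 5.89 in untreated lungs. None of 8 red blood cell genes passed (median −0.80, but 0.081 without saline replicate 1 and −1.46 without bleomycin replicate 3), with 9.26 to 50.7 CPM of Hba-a1 in bleomycin lungs and 8.88 to 170.1 CPM in saline lungs. Adipocyte genes gave 2 falls among 10, with a median of −0.51 that was 0.47 with the clock score as covariate, −1.17 without bleomycin replicate 4 and −0.195 without saline replicate 1. Skeletal muscle genes gave 1 fall among 9 (median −0.018), and nerve genes 1 rise and 3 falls among 9 (median −0.032). The part of these tissues in other changes was not tested.

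Genes that respond within minutes to handling, and genes of the daily clock, were also checked. Immediate early genes gave 2 rises and 7 falls among 14, with a median of −0.28. Fos had 329, 245, 274, 293, 173 and 211 CPM in bleomycin lungs, against 685, 624, 318, 568, 356 and 594 CPM in saline lungs, an overlap of 1 bleomycin lung (−1.05 ± 0.30, adjusted p = 0.00247). Among 12 clock genes 3 rose and 2 fell (median −0.15). The activator gene Arntl had 19.8 to 32.7 CPM in bleomycin lungs and 31.9 to 53.3 CPM in saline lungs (−0.79 ± 0.12), and the output gene Dbp rose by 1.03 ± 0.35, but was −0.24 with a score of these clock genes as covariate. Dbp is itself part of that score, so the fit with this covariate cannot test its change. The hour of tissue collection is not given in the labels, and its part in these changes was not tested.

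**Figure D3:**
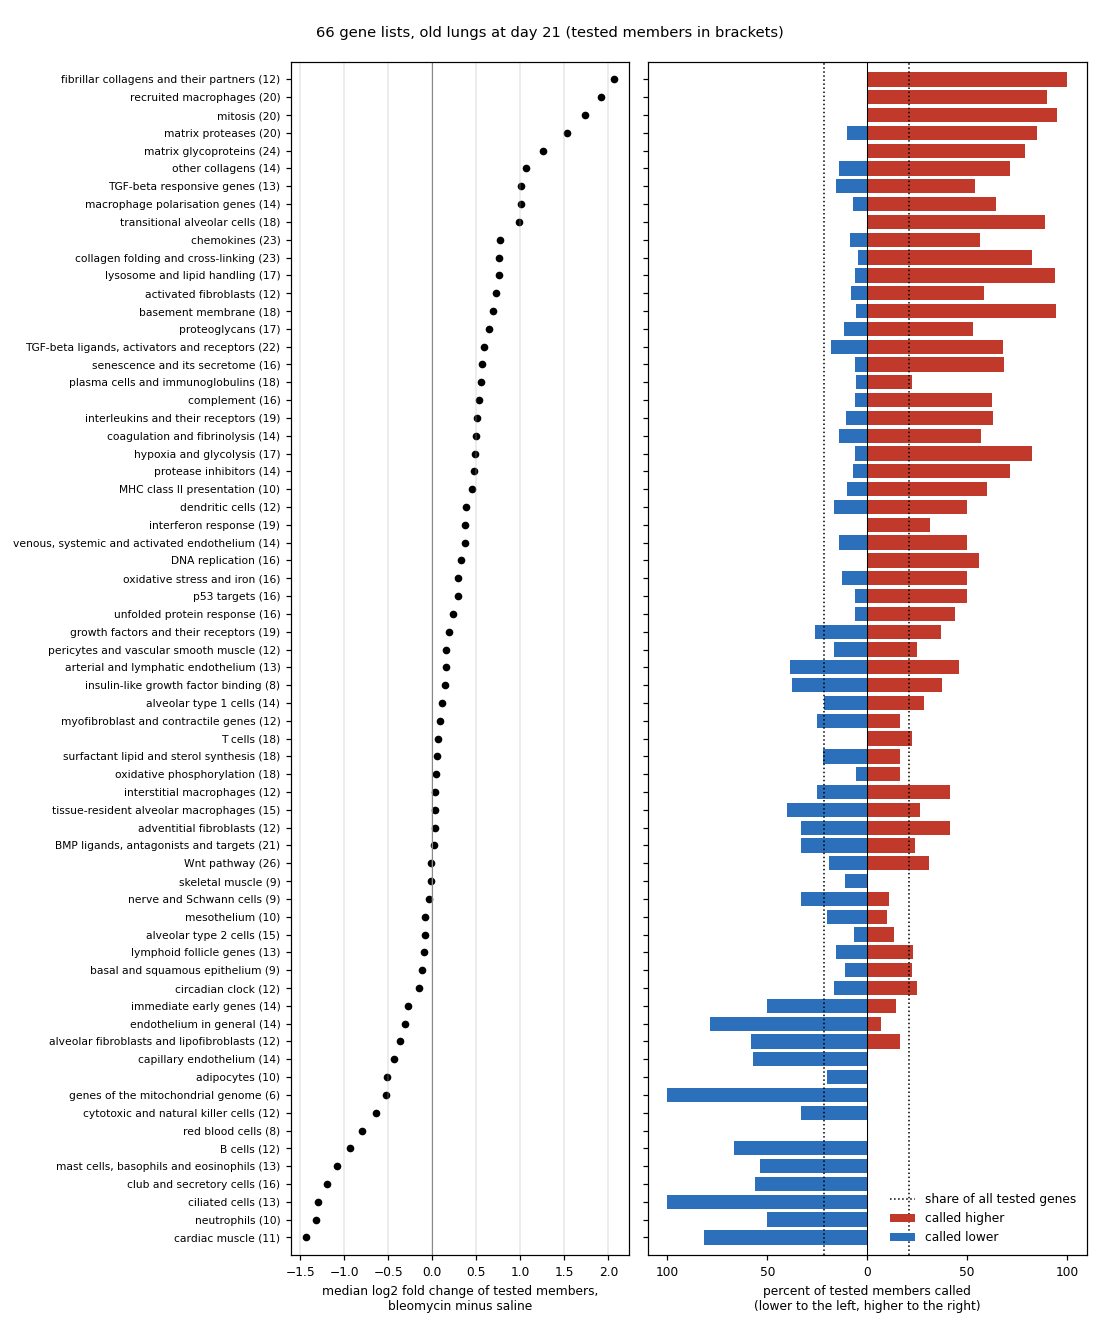
Median log2 fold change of bleomycin over saline (left) and percent of members that rose or fell (right) for 66 gene lists in old lungs at day 21, with dotted lines at the shares of all genes that rose (21.1%) and fell (21.4%). Fibrillar collagens (2.06), recruited macrophages (1.92) and mitosis (1.74) lie at the high end and cardiac muscle (−1.43), neutrophils (−1.32) and ciliated cells (−1.30) at the low end. The lists were chosen with earlier results known, so the dotted lines are a reference and not a test.

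Transcript classes differed in direction. Of 15424 protein-coding genes 7055 (45.7%) passed, with 3676 rises and 3379 falls. Long intergenic RNAs leaned to lower values, with rises in 7.34% and falls in 26.3% of 518, as did antisense transcripts, with rises in 7.07% and falls in 24.7% of 566. The strand setting of the counting is not given in the sources used here, so reads of an antisense gene and its partner cannot be told apart. Of 177 immunoglobulin variable segments 25 rose (14.1%) and 2 fell (1.13%), both below the shares of all tested genes, 21.1% and 21.4%.

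The 6 bleomycin lungs differed in the size of these changes. Over the 916 genes that rose by more than 1, the median distance from the saline mean on the log2 scale was 1.63, 1.39, 0.69, 1.32, 1.70 and 1.80 in replicates 1 to 6. Over the 1066 genes that fell by more than 1 it was −1.61, −1.24, −0.72, −1.14, −1.45 and −1.46. These genes were chosen by the same contrast, so the values describe the lungs and test nothing. Among 21 lists with a median above 0.5, replicate 3 was the lowest bleomycin lung in 20 and replicate 6 the highest in 14. Without replicate 3 the number of genes that passed was 8169, and without replicate 6 it was 6997.

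**Figure D4:**
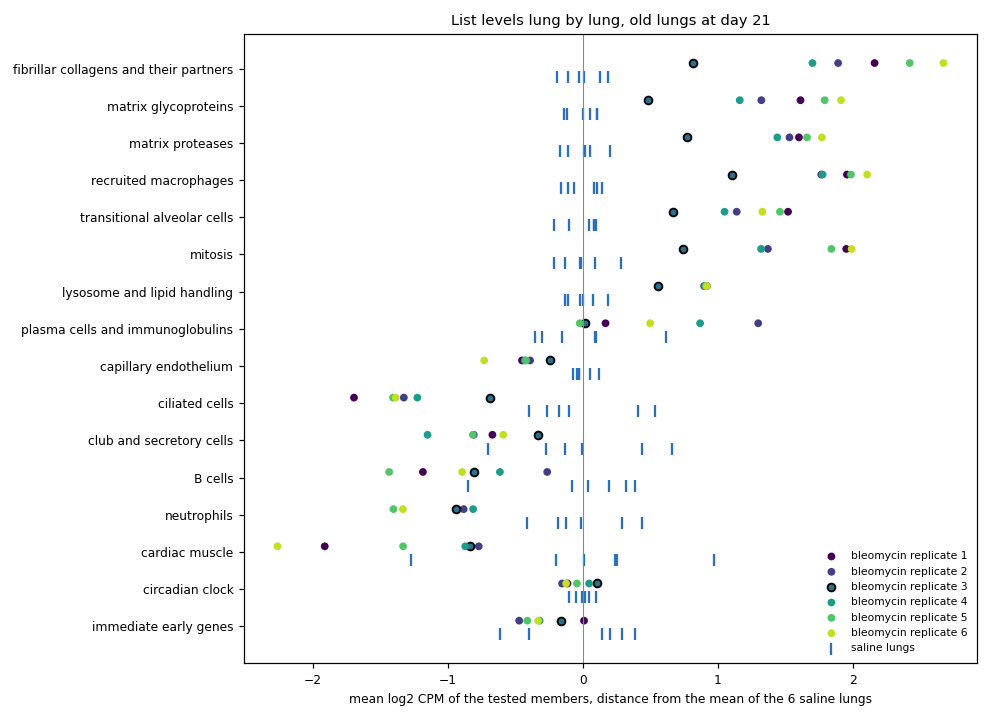
Distance of each bleomycin lung from the saline mean in mean log2 CPM for 16 gene lists, with 1 coloured point per bleomycin lung, replicate 3 outlined, and the 6 saline lungs as blue ticks around 0. Replicate 3 lies nearest to 0 for fibrillar collagens, where the list mean is 6.10 to 7.96 in bleomycin lungs and 5.10 to 5.48 in saline lungs, and recruited macrophages do not overlap, at 7.01 to 8.01 in bleomycin lungs and 5.74 to 6.05 in saline lungs.

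The same contrast in young mice at day 21 called 6678 genes (36.3%). Of the 7815 genes called in old mice, 5034 (64.4%) were called in the same direction in young mice, which is 75.4% of the young calls, and 2 were called in opposite directions. The test of the difference itself, old minus young, called 0 genes (0%) in edgeR, with 1506 at an unadjusted p under 0.05. DESeq2 called 10, and edgeR called 32 when only the 4 groups compared entered the fit. A difference that misses the threshold does not show that old and young lungs responded alike. The smallest adjusted p of this edgeR test was 0.0641. The genes given next were named by other rules and were not ranked by this difference. Grem1 changed by 6.60 ± 0.67 in old lungs and 4.49 ± 0.68 in young lungs, a difference of 2.11 ± 0.97 (adjusted p = 0.565). Mmp12 changed by 3.21 ± 0.43 in old lungs and 4.93 ± 0.54 in young lungs, a difference of −1.71 ± 0.66 (adjusted p = 0.438), and Trem2 differed by −1.04 ± 0.36 (adjusted p = 0.380). Alox15 had −2.23 ± 0.46 in old lungs and −0.092 ± 0.50 in young lungs, a difference of −2.14 ± 0.67 (adjusted p = 0.315). Plasma cell genes had a median of 0.55 in old lungs and 1.63 in young lungs, with 4 and 11 of 18 genes called higher, against 21.1% and 18.8% of all genes.

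At day 14 in old mice 10252 genes (55.7%) were called and at day 28 7295 (39.7%), with 3674 higher (19.97%) and 3621 lower (19.7%). Of the 7815 genes called at day 21, 5403 (69.1%) were called in the same direction at day 14, which is 52.7% of the day 14 calls, and 1.39% in the opposite direction. At day 28, 5400 (69.1%) were called in the same direction, which is 74.02% of the day 28 calls, and 1 in the opposite direction. Fibrillar collagens had medians of 1.71, 2.06 and 1.83 at days 14, 21 and 28, mitosis genes 1.71, 1.74 and 1.02, and basement membrane genes 0.29, 0.69 and 0.91. Neutrophil genes had medians of 0.23, −1.32 and −1.58 and B cell genes −0.33, −0.93 and −1.65. Nuclear genes of oxidative phosphorylation had a median of 0.46 with 13 rises among 18 at day 14, where 29.3% of all genes rose, and 0.045 with 3 rises at day 21. The day 14 and day 28 list values were not computed again with lungs left out, so their dependence on single lungs was not tested.

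The difference in effect between day 21 and day 14 passed for 2235 genes (12.1%), with 867 higher at day 21 (4.71%) and 1368 lower (7.44%). Cyp1a1 had a log2 fold change of −3.39 ± 0.50 at day 21 and −0.52 ± 0.44 at day 14, a difference of −2.87 ± 0.66 (adjusted p = 0.00430). Bex2 changed by −2.67 at day 21 and −1.38 at day 14, a difference of −1.29 (adjusted p = 0.0425). Among the largest falls of the effect were Hbb-bt (−4.25), Alas2 (−4.14), Hbb-bs (−4.01), Hba-a2 (−3.88) and Hba-a1 (−3.79), genes of red blood cells. They rested on bleomycin day 14 replicate 3, and without it the difference was −0.51 for Hbb-bs, −0.26 for Hbb-bt and 0.24 for Alas2. Among the largest rises of the effect were Derl3 (1.80), an endoplasmic reticulum gene of plasma cells, Veph1 (1.31), Cacna1h (1.31), Igsf9b (1.297), Arfgef3 (1.28) and Adnp (1.42). Adnp had 1.47 to 1.80 CPM in bleomycin lungs at day 21, 0.509 to 1.35 CPM in saline lungs at day 21 and 1.44 to 2.61 CPM in untreated lungs, so that the saline lungs were the low ones. Derl3, Veph1, Cacna1h and Igsf9b lost the call without bleomycin day 14 replicate 6. The share of 12.1% was 0.718% without bleomycin day 14 replicate 6, 18.5% to 18.7% without bleomycin day 14 replicate 1, 3 or 5, 8.05% without bleomycin day 21 replicate 6 and 7.46% without saline day 21 replicate 6. It was a single gene when only the groups compared entered the fit.

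Between day 21 and day 28 the effect differed for 3 genes (0.0163%), with 2 higher at day 21 (0.0109%) and 1 lower (0.00544%), and 1335 had an unadjusted p under 0.05. Both higher ones, the neighbouring imprinted genes Meg3 (difference 2.32 ± 0.47, adjusted p = 0.0167) and Dlk1 (9.83 ± 1.70, adjusted p = 0.00115), rested on saline day 28 replicate 5. That lung had 447 CPM of Meg3 and 180.2 CPM of Dlk1, while bleomycin lungs at day 21 had 20.7 to 36.3 CPM of Meg3 and 0.0966 to 0.549 CPM of Dlk1. Without it the Meg3 difference was 0.11. Abhd4, a phospholipase gene, rose by 0.15 ± 0.061 at day 21 and 0.61 ± 0.067 at day 28, a difference of −0.45 ± 0.091 (adjusted p = 0.0167), and this call was lost without saline day 21 replicate 2, bleomycin day 28 replicate 5 or saline day 28 replicate 2, 3 or 5.

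**Figure D5:**
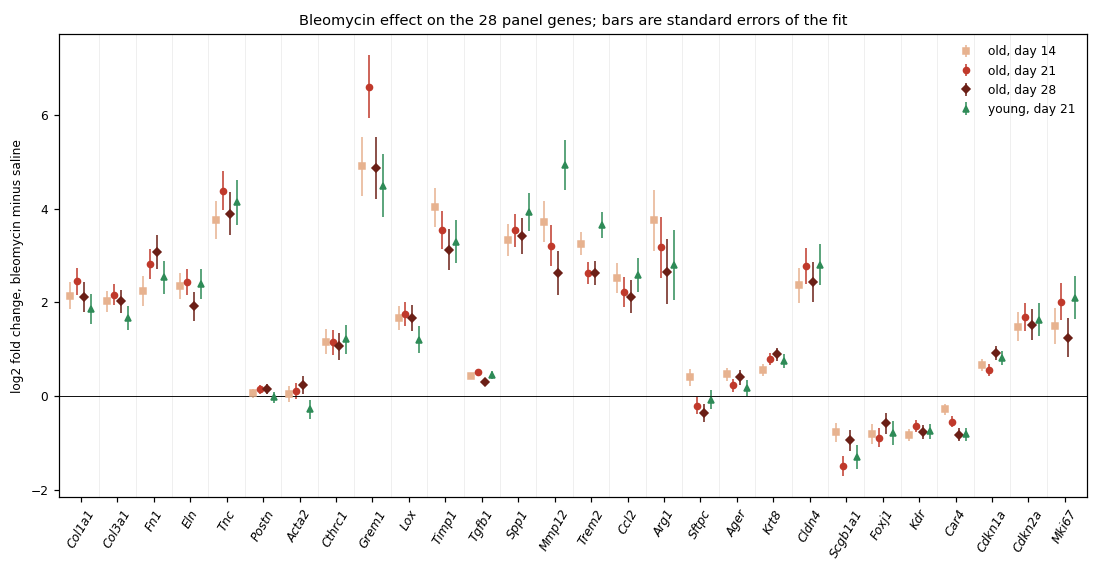
Log2 fold change of bleomycin over saline with its standard error for 28 genes in old lungs at days 14, 21 and 28 and in young lungs at day 21. Spp1 has 3.33, 3.54 and 3.42 at days 14, 21 and 28 and 3.93 in young lungs.

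Saline lungs at day 21 were also set against untreated old lungs, and 0.631% of the genes passed, with 26 higher in saline lungs (0.141%) and 90 lower (0.489%). Lars2 (1.29) and Mir6236 (1.49) led the higher ones and rested on saline replicate 3, at 407 and 319 CPM, with a difference of 0.54 each without it. Ccdc9b (0.35), AW146154 (0.32), Ermard (0.30) and Olfr1372-ps1 (0.62) were smaller. The lower ones were led by the lymphocyte genes Gzmm (−2.37), Cd8b1 (−1.91), Cxcr3 (−1.53), Samd3 (−1.47) and Cd28 (−1.45) and the chemokine gene Cxcl5 (−1.73). Gzmm and Cxcr3 rested on untreated replicate 2, at 47.3 and 62.3 CPM, and were −0.16 and −0.13 without it. Without the same lung Cd8b1 was 0.072, Samd3 −0.087 and Cd28 −0.41. For Col1a1 the saline lungs, at 315 to 409 CPM, covered the untreated lungs, at 344 to 383 CPM.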

How the data were processed

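Poly-A RNA of lung was sequenced with a TruSeq mRNA kit, per the labels' protocols. The authors deposited raw counts of reads per gene. The submitters' processing notes name bcl2fastq 2.20.0.422, FastQC 0.11.5, STAR 2.5.2, featureCounts 1.5.1 and RSEM 1.3.0, with the builds GRCm38, hg38 and GRCh38 and no roles, and the strand setting, annotation release and rule for reads with several matches are not given in the sources used here. Names and coordinates come from GENCODE M21 (GRCm38), which named 18348 of 18396 tested genes.

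From these deposited counts all 137 libraries in 26 groups were fitted with edgeR 4.0.16 (R 4.3.3; TMM scaling, filterByExpr with a count minimum of 10, robust quasi-likelihood F test, 111 residual degrees of freedom), and p-values were adjusted by Benjamini-Hochberg over 18396 of 48794 genes. The common biological coefficient of variation was 16.0%. Each standard error is the absolute log2 fold change over the root of its F statistic. It holds the spread between lungs as estimated over all 26 groups, while floors of 3 reads cover counting error only. In data simulated for this comparison over 18314 genes, 96% of genes changed by 1 on the log2 scale and 74% of those changed by 0.5 were recovered, with 6 unchanged genes called. The changed genes were drawn from those with an average log2 CPM above 1. All other genes were left unchanged, and no bleomycin lung was made milder than the rest. These shares therefore do not carry over to all tested genes of the real data. Alternatives were RLE and upper-quartile scaling, no filter, DESeq2 1.42.0, a fit of only the groups compared, clock and immediate early scores as covariates, and each lung left out.

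Members and lists were chosen with earlier results of these data known. Genes were named by size of change (14 rises, 12 falls), by a panel of 28, and by up to 5 smallest p-values per list, or 2 where no member was called. Others, such as Dlk1, were chosen after their values were seen. A few genes that the rule names are not reported here.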

Additional observations from a re-analysis of the deposited data

Results flagged for a closer look

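Among 238 groups of 6 lungs, the highest or lowest lung stood apart from the other 5 in 18 (7.56%), and chance gives about 5%. These groups are genes and lists measured in the same lungs and are not independent, so the shares cannot be compared as a test. Bleomycin replicate 3 was the lung apart in most of them, in log2 CPM, for Spp1 (9.61), Trem2 (5.36), Scgb1a1 (13.42), Chl1 (1.299), Col24a1 (1.24), Sprr1a (1.93), Rgs16 (2.29), Fabp1 (1.35) and Dcdc2a (2.76), and for the list means of matrix proteases (5.29), recruited macrophages (7.01) and lysosome genes (7.67). Each of these lay on the side of the saline lungs. Bleomycin replicate 6 stood apart for Cdkn2a (2.70, the highest) and for the list mean of type 1 alveolar genes (8.82), and bleomycin replicate 1 for that of alveolar macrophages (4.51). Saline replicate 3 stood apart, as the lowest, for Lox (5.92), Timp1 (1.75) and Trem2 (2.60).

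The bleomycin effect in old lungs differed between day 21 and day 14 for 2235 genes and between day 21 and day 28 for 3 by the test of the difference. Of the named genes, the effect was lower at day 21 than at day 14 for Cyp1a1 (−2.87), Bex2 (−1.29), Hbb-bt (−4.25), Alas2 (−4.14), Hbb-bs (−4.01), Hba-a2 (−3.88) and Hba-a1 (−3.79). It was higher at day 21 for Derl3 (1.80), Adnp (1.42), Veph1 (1.31), Cacna1h (1.31), Igsf9b (1.297) and Arfgef3 (1.28). Against day 28 it was higher at day 21 for Meg3 (2.32) and lower for Abhd4 (−0.45). As given above, the red blood cell genes rested on bleomycin day 14 replicate 3 and Meg3 on saline day 28 replicate 5. Derl3, Veph1, Cacna1h, Igsf9b and Abhd4 lost the call without some single lungs.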

How the results depend on the processing

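In the comparison of bleomycin with saline at day 21, 42.5% of tested genes passed (7815), and leaving out lungs in turn gave 38.04% to 44.4%. A log2 fold change above 1 was passed by 10.8% (1982). Over 342 named genes and 2386 values under other settings, 2328 kept direction and side of the threshold, 48 lost the call, 8 gained it and 2 reversed: with a clock score as covariate Per3 was −0.010 and Dbp −0.24. Both genes are part of that score, so this fit cannot test their changes. With lungs left out in turn, 3975 of 4104 values kept both, 2.9% lost the call, 10 values gained it and none reversed. List medians changed sign in some settings for BMP, Wnt, adventitial, mesothelial, type 2, basal, alveolar and interstitial macrophage, T cell, oxidative phosphorylation, lipid, nerve and skeletal muscle genes, all at −0.12 to 0.063, and for adipocytes (−0.51) and red cells (−0.798). Old minus young gave 0 genes, against 0.0217% of genes with upper-quartile scaling (4), 0.0276% with DESeq2 (10), 0.186% with only the groups compared (32) and 0 to 0.0215% with lungs left out. Day 21 minus day 14 gave 12.1%, against 3.67% with no filter, 0.00585% with only the groups compared, 1.59% without bleomycin day 14 replicates 3 and 6, and 0.718% to 18.7% with lungs left out. Without both those lungs the difference was 0.12 for Hbb-bt, 0.37 for Alas2, 0.26 for Hba-a2 and 0.38 for Hba-a1, and with single lungs left out it was −4.66 to 0.24 for Alas2. Day 21 minus day 28 gave 3 genes, 0 with only the groups compared and 0 to 0.0218% with lungs left out. Saline minus untreated gave 0.631%, 0.0541% with only the groups compared and 0.261% to 1.14% with lungs left out, when Cd8b1 was −2.19 to 0.072. The fit of only the groups compared has fewer samples and its own estimate of the spread. In the comparison of bleomycin with saline at day 21 it called 45.1% of its genes. The cause of its different counts was not tested. No paired analysis was possible because no replicate number, batch or date is shared between groups in the labels. Depth limits genes under about 1 CPM, such as Krt5 and Cpa3.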

Other observations

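In saline day 28 replicate 5, Meg3 and Dlk1 had 447 and 180.2 CPM, while the medians of the saline lungs at that day were 23.3 and 0.0571 CPM. The values are given with no account of their source.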
